A study of Mus musculus with 9 samples.

Results

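The genes of fatty acid synthesis, elongation and desaturation were followed in substantia nigra, the midbrain region that holds dopamine neurons, of C57BL/6 mice. The set is a list of 10 named genes, taken as the rows of the deposited count table with those symbols: Srebf1, Acly, Acaca, Fasn, Elovl5, Elovl6, Scd1, Scd2, Fads1 and Fads2. They are 10 of 20591 rows, and all 10 were among the 20535 genes tested. The 9 RNA-seq libraries came from mice labelled as sham for genotype, which the series text describes as wild type animals with a sham operation, assigned to diets at 12 weeks of age. The 3 groups of 3 libraries were an ad libitum diet for 1 week, 1 day of fasting, and 1 week of intermittent fasting, in which 24 hours without food began 2 hours before lights off and was repeated 3 times in the week. Ad libitum mice were handled and caged on the same daily schedule. The sham operation is thus shared by all 3 groups. The labels state neither sex, nor the time from the last fast to sampling, nor whether the libraries came from different animals. The p-values therefore describe only the scatter among these libraries, part of which may be technical.

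Cells build fatty acids from citrate. ATP citrate lyase (Acly) splits citrate to give cytosolic acetyl-CoA, acetyl-CoA carboxylase (Acaca) turns that into malonyl-CoA, and fatty acid synthase (Fasn) joins malonyl units into palmitate. Elongases (Elovl genes) lengthen the chain, stearoyl-CoA desaturases (Scd genes) place a double bond in saturated chains, and the front-end desaturases Fads2 and Fads1 act in turn on polyunsaturated chains. The transcription factor SREBP-1, encoded by Srebf1, raises many of these genes, and in liver the pathway is known to follow feeding and insulin. In brain these enzymes supply membrane lipids, above all to myelin-forming oligodendrocytes and to astrocytes.

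Library totals ranged from 36109995 to 54248856 counts, and every member had at least 2087 counts in each library. All 10 dopaminergic neuron markers examined were present in every library, and their summed level was 1299 to 1712 CPM in the ad libitum group, 842 to 1690 CPM in the 1 day group and 1306 to 2056 CPM in the 1 week group (CPM, counts scaled to a common library size with TMM factors). The libraries numbered 2 in both fasted groups stood apart: the 1 day one and the 1 week one had estimated quality weights of 0.213 and 0.507 against 0.972 to 1.93 in the other 7 libraries. Replicate 3 of the 1 week group held cortical RNA markers, with Slc17a7 at 501 CPM against 4.31 to 49.2 CPM elsewhere, and ad libitum replicate 3 held the choroid plexus transcript Ttr at 335 CPM against 2.61 to 35.5 CPM elsewhere. A list of 12 genes known to be induced through the glucocorticoid receptor, of which 4 rose after 1 day and 8 after 1 week in edgeR's test against 0.0536% and 0.253% of all genes, summed to 532 to 545 CPM in the ad libitum group, 842 to 1254 CPM after 1 day and 1270 to 1766 CPM after 1 week. This list was chosen with earlier results of these data known, so its counts are a description and not an independent check.

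Scd2, the stearoyl-CoA desaturase that predominates in brain, was by far the most abundant of the 10 per unit of length. On the scale of CPM per kilobase of the longest protein-coding transcript, it stood at 530 ± 18.0 (SD, n = 3) in the ad libitum group, and Scd1 followed at 85.8 ± 10.4. Fads1 and Fads2 came next with 67.5 ± 3.59 and 64.2 ± 1.63 CPM per kilobase, and the ranges of this pair overlapped. Fasn at 55.5 ± 3.24 and Acly at 53.5 ± 2.43 CPM per kilobase overlapped too, as did Elovl5 at 34.7 ± 2.75 and Srebf1 at 32.1 ± 0.572. Acaca at 18.7 ± 0.486 and Elovl6 at 13.6 ± 1.29 CPM per kilobase were the lowest, and their ranges were separate. The transcript lengths come from another genome build than the counts, so this order is approximate. In the fasted groups Acly lay above Fasn and Srebf1 above Elovl5, and the remaining 6 genes held the same places.

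**Figure D1:**
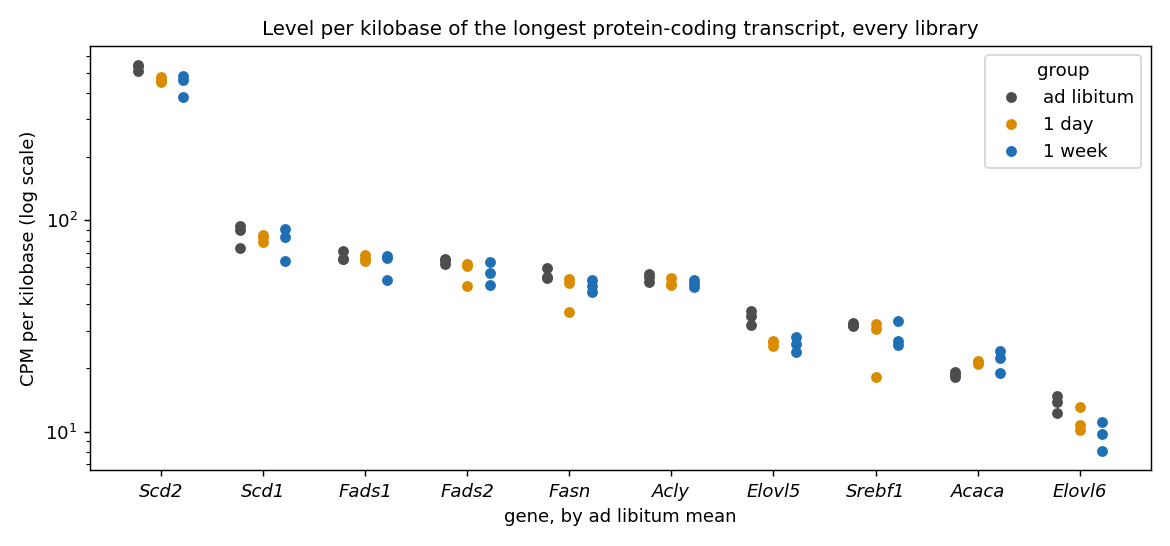
Level of each of the 10 genes in CPM per kilobase (vertical axis, log scale), ordered by the ad libitum mean (horizontal axis), with 1 point per library and colour for the group. Scd2 lies between 384 and 542 CPM per kilobase in every library, above all points of the other 9 genes, and Elovl6 has the lowest mean in each group.

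The question for each fasting regimen was whether these genes differed from the ad libitum group. After 1 day, 9 of the 10 members had a negative log2 fold change and Acaca a positive one, and after 1 week the signs were the same. The median log2 fold change of the 10 was -0.18 after 1 day and -0.18 after 1 week, beside medians of 0.00041 and -0.0013 over all 20535 genes. The estimates were small, from -0.405 to 0.185 after 1 day and from -0.502 to 0.223 after 1 week, but they were not precise. The 95% intervals of the 10 genes ran from -0.68 to 0.41 after 1 day and from -0.82 to 0.45 after 1 week. That is 0.623 to 1.33 times and 0.567 to 1.37 times the ad libitum level. No member passed edgeR's quasi-likelihood test with adjustment over all genes, with adjusted p from 0.313 to 0.929 after 1 day and from 0.148 to 0.823 after 1 week. The share of all genes that passed was 0.0584% and 0.307%. At an unadjusted p below 0.05, Elovl5 was lower after 1 day, which is 1 of 10 members against 4.90% of all genes, and Scd2, Elovl5 and Elovl6 were lower after 1 week, which is 3 of 10 against 4.90% of all genes. DESeq2 called Elovl5 lower in both comparisons, 1 of 10 members each, where it called 0.501% and 0.861% of genes lower. Limma's voom with quality weights called no member after 1 day, against 0.234% of genes lower, and Elovl6 lower after 1 week, 1 of 10 against 0.555%. In bulk tissue, fewer cells of a type and less RNA per cell cannot be told apart.

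The 3 fasted libraries lay entirely below the 3 ad libitum libraries for Fasn, Scd2, Elovl5 and Fads2 after 1 day, 4 of 10 members against 10.3% of all genes, and entirely above them for Acaca, 1 of 10 against 8.17% of all genes. After 1 week the 4 genes below were Fasn, Scd2, Elovl5 and Elovl6, against 11.5% of all genes, and 0 of 10 lay above, against 10.9%. Both comparisons share the ad libitum libraries. The median level of the 10 members was 211 CPM, against 10.6 CPM over all genes. The shares of all genes given here and for the tests are thus not matched for level.

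**Figure D2:**
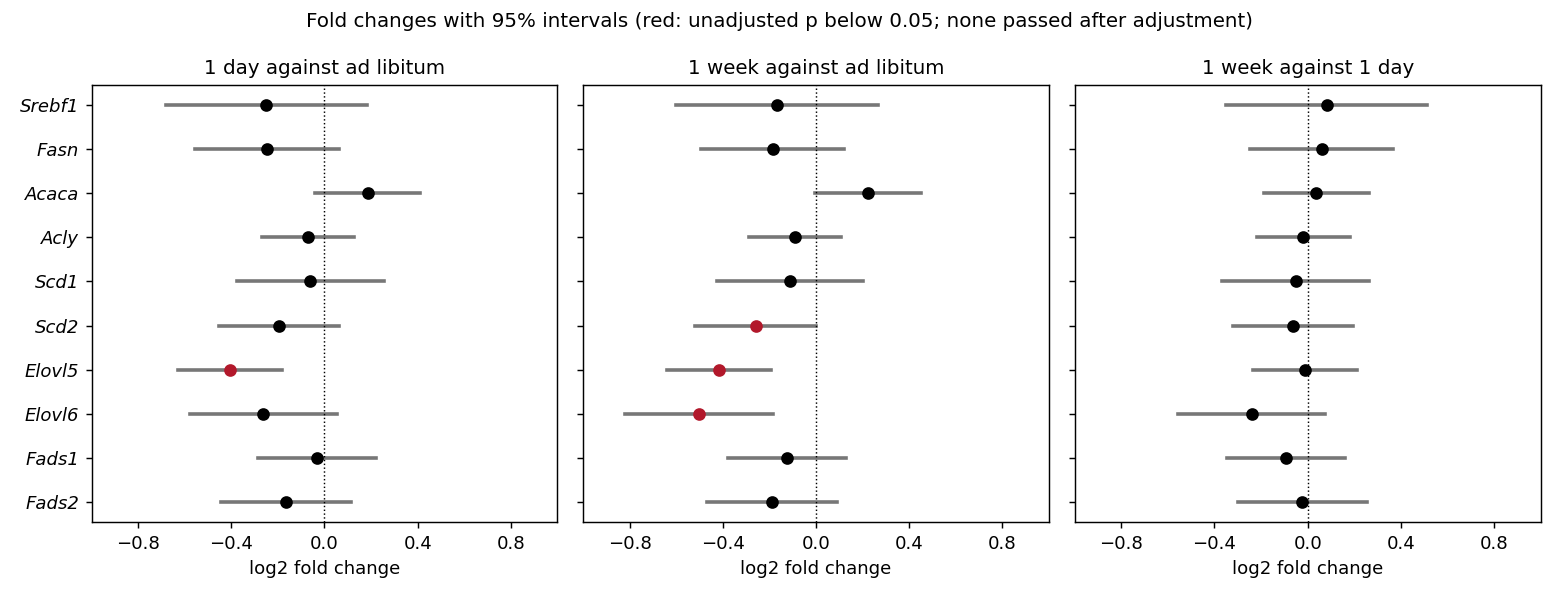
Log2 fold change (horizontal axis) of each gene (vertical axis) in the 3 comparisons, with lines for 95% intervals from the edgeR fit and red points for an unadjusted p below 0.05. Elovl5 is red in both comparisons with the ad libitum group, at -0.41 and -0.42, Scd2 and Elovl6 are red after 1 week, and no point is red between the fasted groups.

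Elovl5, which lengthens polyunsaturated fatty acids, gave the smallest p of the 10 in both comparisons with the ad libitum group. Its level (ENSMUSG00000032349) was 103.5, 88.4 and 97.6 CPM in ad libitum replicates 1, 2 and 3. It was 73.7, 74.4 and 70.5 CPM in the 1 day libraries and 78.2, 66.4 and 72.4 CPM in the 1 week libraries. All 6 fasted libraries were thus below all 3 ad libitum libraries, and the fasted groups overlapped each other. The mean was 96.5 ± 7.66 CPM (SD, n = 3) with food, 72.9 ± 2.05 CPM after 1 day and 72.3 ± 5.92 CPM after 1 week. The log2 fold change was -0.41 after 1 day (SE 0.10, edgeR adjusted p = 0.313, unadjusted p = 0.00227) and -0.42 after 1 week (SE 0.10, edgeR adjusted p = 0.148, unadjusted p = 0.00192), which is 0.755 and 0.750 times the ad libitum level. DESeq2 gave adjusted p of 0.0301 and 0.0102, and over all 17 alternatives the adjusted p ran from 0.0301 to 0.828 after 1 day and from 0.0102 to 0.501 after 1 week. Among all genes by p, Elovl5 ranked 147 after 1 day and 264 after 1 week.

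Elovl6, which lengthens palmitate and other saturated chains made by fatty acid synthase, had the lowest fold change of the 10 after 1 week. Its level (ENSMUSG00000041220) was 82.0, 73.1 and 88.4 CPM in the ad libitum libraries, 64.4, 78.0 and 60.7 CPM after 1 day, and 57.9, 65.8 and 48.2 CPM after 1 week. After 1 day only replicate 2 reached into the ad libitum range, and after 1 week all 3 libraries lay below it. The log2 fold change was -0.26 after 1 day (SE 0.142, edgeR adjusted p = 0.566) and -0.50 after 1 week (SE 0.142, edgeR adjusted p = 0.212, unadjusted p = 0.00538), which is 0.706 times the ad libitum level. Voom with quality weights gave an adjusted p of 0.0415 after 1 week, DESeq2 0.0747, and all 17 alternatives 0.0415 to 0.580. Over these alternatives the log2 fold change after 1 week lay between -0.60 and -0.39. The voom fit gave 1 week replicate 2, the highest of its group for Elovl6, a weight of 0.507. Replicate 3, the lowest and the library with cortical markers, had a weight of 0.972. A difference between the fasted groups did not pass the test, with a log2 fold change of -0.24 (95% interval -0.56 to 0.076, edgeR adjusted p = 0.853) for 1 week against 1 day. The ratio of Elovl6 to Elovl5 counts within a library was 0.792 to 0.905 with food, 0.860 to 1.05 after 1 day and 0.666 to 0.991 after 1 week, so the groups overlapped. Of the 31-base words of Elovl6 transcripts, 6.41% occur in another gene.

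The sequences before the start of both elongase genes and of Fasn are shown because these 3 genes lay lower in all 3 libraries of the 1 week group. They are 250 bases upstream of the annotated start, from RefSeq on build GRCm38.p6, read 5′ to 3′ on the gene's strand, and capitals mark the CCAAT box (CCAAT, or ATTGG on the other strand) and the E-box (CACGTG). Elovl5 is at chr9:77917115-77917364 (plus strand), Elovl6 at chr3:129532136-129532385 (plus strand) and Fasn at chr11:120824548-120824797 (minus strand).
Elovl5: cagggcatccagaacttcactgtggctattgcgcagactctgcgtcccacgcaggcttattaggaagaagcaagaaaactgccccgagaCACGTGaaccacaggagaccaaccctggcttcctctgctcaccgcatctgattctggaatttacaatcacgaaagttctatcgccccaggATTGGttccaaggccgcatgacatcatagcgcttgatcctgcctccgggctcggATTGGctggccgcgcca
Elovl6: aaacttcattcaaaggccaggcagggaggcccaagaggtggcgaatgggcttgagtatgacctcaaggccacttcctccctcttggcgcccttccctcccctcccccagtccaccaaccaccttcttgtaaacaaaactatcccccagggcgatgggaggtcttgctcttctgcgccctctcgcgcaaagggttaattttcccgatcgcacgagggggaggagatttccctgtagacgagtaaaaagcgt
Fasn: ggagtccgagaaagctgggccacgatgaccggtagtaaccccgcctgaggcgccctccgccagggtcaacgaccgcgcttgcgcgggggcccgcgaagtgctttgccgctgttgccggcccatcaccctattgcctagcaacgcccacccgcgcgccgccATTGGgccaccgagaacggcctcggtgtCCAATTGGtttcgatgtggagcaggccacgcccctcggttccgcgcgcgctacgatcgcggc

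Elovl5 has 1 E-box, whose first base is at position -161 from the start, and 2 CCAAT boxes on the other strand at -71 and -17. Fasn has 3 CCAAT boxes, at -90, -62 and -59, of which the last 2 overlap on opposite strands. The Elovl6 window has none of the letters searched. Sequences were found for 7 of the 10 members with 9 starts (not Scd1, Scd2 and Fads1). The search covered 250 bases before to 50 after each start on both strands, for the CCAAT box and the E-box as above, the GC box (GGGCGG) and a sterol element (written TCACNCCAC). Over 32851 promoter windows of that length, 37.4% hold a CCAAT box, 7.15% an E-box, 35.7% a GC box and 1.24% the sterol element. No member start held the sterol element in these letters, and GC boxes were found for Acly (4), Fads2 (1) and the starts numbered 2 and 3 of Srebf1 (3 and 2). CCAAT boxes were also found for Acly (1) and the starts numbered 1 and 3 of Srebf1 (1 and 1). A match in letters is a description and not a bound site.

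The regulator Srebf1 (ENSMUSG00000020538) was at 140.8, 136.1 and 137.2 CPM in the ad libitum libraries, a spread of 1.78% of the mean. It was at 138.3, 77.9 and 132.1 CPM after 1 day and 143.3, 115.0 and 110.2 CPM after 1 week. Replicate 2 of the 1 day group, the library with the lowest quality weight, was at 56.4% of the ad libitum mean, while 1 day replicate 3 was at 95.7% and replicate 1 at the ad libitum mean. The log2 fold change was -0.25 after 1 day (SE 0.195, edgeR adjusted p = 0.647), -0.029 without that library and -0.39 without 1 day replicate 1. After 1 week it was -0.17 (SE 0.194, edgeR adjusted p = 0.806), -0.29 without 1 week replicate 1 and -0.092 without 1 week replicate 3. The 95% interval after 1 week, -0.60 to 0.27, leaves room for a level 0.659 to 1.20 times that of the ad libitum group.

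In the synthesis steps, Acaca and Fasn had opposite signs. Acaca (ENSMUSG00000020532), the committed step of fatty acid synthesis, was at 172.9, 178.3 and 182.1 CPM with food, 198.6, 203.4 and 204.5 CPM after 1 day, and 181.2, 228.5 and 212.9 CPM after 1 week. The 1 day libraries were all above the ad libitum ones, and after 1 week replicate 1 lay within their range. Its log2 fold change was 0.19 after 1 day (SE 0.102, edgeR adjusted p = 0.567) and 0.22 after 1 week (SE 0.102, edgeR adjusted p = 0.454). Fasn (ENSMUSG00000025153) was at 535.0, 595.2 and 543.5 CPM with food, 532.9, 372.1 and 505.4 CPM after 1 day, and 522.6, 490.2 and 458.3 CPM after 1 week. Every fasted library was below every ad libitum library, by little for replicate 1 of either fasted group and by most for 1 day replicate 2. The log2 fold change of Fasn was -0.25 after 1 day (SE 0.138, edgeR adjusted p = 0.570), -0.10 without 1 day replicate 2, and -0.19 after 1 week (SE 0.138, edgeR adjusted p = 0.674). Within libraries, which needs no scaling between them, the ratio of Acaca to Fasn counts was 0.323, 0.300 and 0.335 with food, 0.373, 0.547 and 0.405 after 1 day and 0.347, 0.466 and 0.464 after 1 week. All 6 fasted libraries had a higher ratio than the 3 ad libitum libraries. This pair was not among the ratios planned. It sets the only member with a positive sign over a member lower in all 6 fasted libraries, so the separation adds no support. The share of other gene pairs that separate in this way was not computed. Of the 31-base words of Acaca's protein-coding transcripts, 53.2% also occur in the gene model Gm5182, to which 2 to 27 counts were assigned per library. An exact permutation test of 3 libraries against 3 cannot give a two-sided p below 0.10, so none is given.

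Acly (ENSMUSG00000020917) was the steadiest member, with its highest library 1.16 times its lowest. It ranged from 225.5 to 246.9 CPM with food, 217.9 to 236.8 CPM after 1 day and 213.4 to 230.3 CPM after 1 week. The 95% interval of its log2 fold change was -0.27 to 0.13 after 1 day and -0.29 to 0.11 after 1 week, which is 0.830 to 1.09 times and 0.820 to 1.08 times the ad libitum level.

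**Figure D3:**
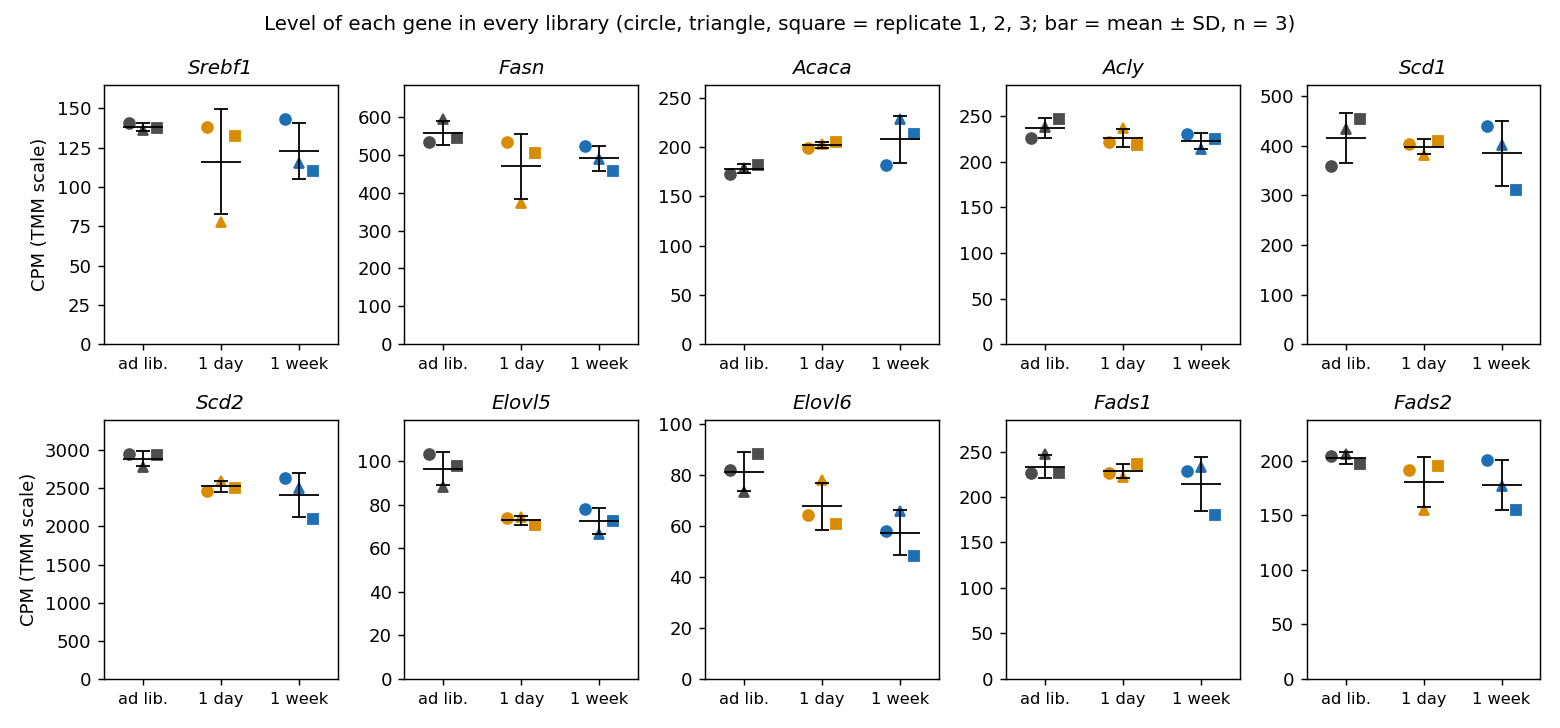
CPM on the TMM scale (vertical axis, from 0) of each gene in the 3 groups (horizontal axis), with circles, triangles and squares for replicates 1, 2 and 3 and bars for mean ± SD of 3 libraries. Elovl5 is at 88.4 to 103.5 CPM with food and 66.4 to 78.2 CPM in the 6 fasted libraries, and the triangle of the 1 day group is low for Srebf1, Fasn and Fads2.

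Among the desaturases, Scd2 (ENSMUSG00000025203) was at 2955, 2776 and 2936 CPM with food, 2467, 2599 and 2502 CPM after 1 day, and 2638, 2507 and 2093 CPM after 1 week. Both fasted groups lay below the ad libitum group, with 1 week replicate 3 the lowest of all. The log2 fold change was -0.20 after 1 day (SE 0.116, edgeR adjusted p = 0.581) and -0.26 after 1 week (SE 0.116, edgeR adjusted p = 0.441, unadjusted p = 0.0485). Without 1 week replicate 3, the library with cortical markers, the 1 week value was -0.16. Scd1 (ENSMUSG00000037071), the isoform best known from liver and fat, was at 357.8, 432.7 and 453.9 CPM with food, 402.1, 381.9 and 409.6 CPM after 1 day, and 439.2, 401.9 and 310.8 CPM after 1 week. Its groups overlapped, with log2 fold changes of -0.060 (95% interval -0.38 to 0.25) and -0.11 (-0.43 to 0.20). Scd1 made up 12.6% ± 1.52 (SD, n = 3) of the counts of the pair with food, 13.6% ± 0.710 after 1 day and 13.7% ± 0.683 after 1 week, and these ranges overlapped. Of the distinct 31-base words of their transcripts, 8.16% of Scd1's and 6.86% of Scd2's occur in another gene, most often Scd3, and reads from those stretches can be split between the genes only by estimate.

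Fads2 (ENSMUSG00000024665), the first desaturase of polyunsaturated fatty acid synthesis, was at 203.9, 206.5 and 196.6 CPM with food, 191.2, 154.3 and 195.5 CPM after 1 day, and 200.6, 176.6 and 155.1 CPM after 1 week. The low values came from replicate 2 of the 1 day group and replicates 2 and 3 of the 1 week group, and 1 week replicate 1 lay within the ad libitum range. Its log2 fold change was -0.17 after 1 day (SE 0.125, edgeR adjusted p = 0.637), -0.064 without 1 day replicate 2, and -0.19 after 1 week (SE 0.125, edgeR adjusted p = 0.635). The 1 week value was -0.29 without 1 week replicate 1 and -0.098 without 1 week replicate 3. Fads1 (ENSMUSG00000010663), which acts after Fads2, was at 226.4, 247.8 and 226.2 CPM with food, 226.6, 221.9 and 236.7 CPM after 1 day, and 228.5, 233.5 and 180.6 CPM after 1 week. It overlapped between all groups, with log2 fold changes of -0.032 (95% interval -0.28 to 0.22) and -0.12 (-0.38 to 0.13), and -0.012 after 1 week without replicate 3. The ratio of Fads1 to Fads2 counts within a library was 1.11 to 1.2 with food, 1.19 to 1.44 after 1 day and 1.14 to 1.32 after 1 week. These ranges overlapped.

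Single libraries held many of the low values. Of the 10 genes, 4 had their lowest level in 1 week replicate 3 (Scd1, Scd2, Elovl6 and Fads1), 3 in 1 day replicate 2 (Srebf1, Fasn and Fads2), 2 in 1 week replicate 2 (Acly and Elovl5) and 1 in ad libitum replicate 1 (Acaca). In 1 week replicate 3, 9 of the 10 members were below the ad libitum mean, from 59.4% of it for Elovl6 to 94.7% for Acly, while Acaca was at 120%. The part of the cortical markers in these values was not tested. The sign of the Elovl5 difference did not depend on 1 library: its log2 fold change lay between -0.47 and -0.35 after 1 day and between -0.48 and -0.35 after 1 week whichever of the 9 libraries was left out, although no such fit called it.

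**Figure D4:**
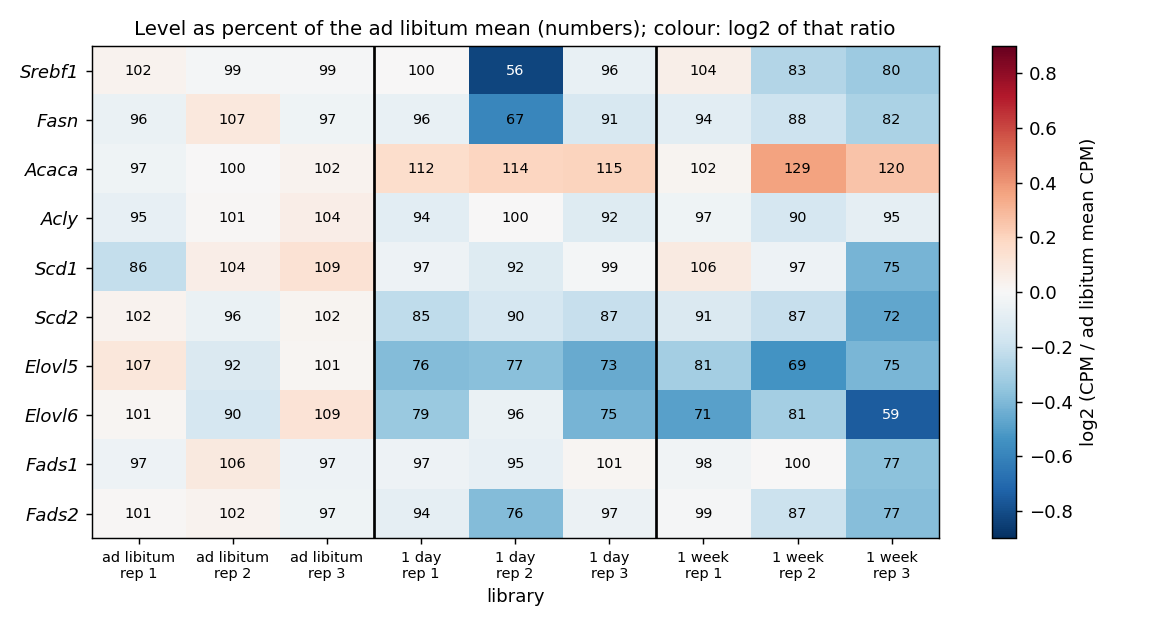
Each cell gives the level of a gene (rows) in a library (columns) as percent of the ad libitum mean, coloured by the log2 of that ratio. Elovl5 is between 68.8% and 81.0% in all 6 fasted libraries, whereas the low values of Srebf1 and Fasn after 1 day sit in replicate 2, at 56.4% and 66.7%.

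Glial markers were summed in each library and set beside these genes. The 14 oligodendrocyte markers, all present in every library, summed to 12442 to 15179 CPM with food, 10420 to 12354 CPM after 1 day and 10985 to 12626 CPM after 1 week, and 0 and 2 of the 14 fell in edgeR's test, namely Trf and Ugt8a after 1 week, against 0.00487% and 0.0536% of all genes. The 12 astrocyte markers summed to 5647 to 5849 CPM, 5714 to 6399 CPM and 5928 to 6306 CPM, and the 12 microglia markers to 357 to 390 CPM, 254 to 297 CPM and 226 to 355 CPM. The astrocyte sums after 1 week thus lay above those with food, but the markers did not move together. After 1 week 7 of the 12 had a log2 fold change above 0 and 5 below. Slc1a2 was the largest part of the sum, with a mean of 2608 CPM with food and 2790 CPM after 1 week. Among the 5 below 0, Aqp4 had means of 241.1 and 186.1 CPM, and Sox9 61.96 and 49.25 CPM. In edgeR's test 0 and 1 of the 12 astrocyte markers rose after 1 day and 1 week, against 0.0536% and 0.253% of all genes, and 0 fell in either. None of these markers was at 0 in any library. Per 1000 CPM of summed oligodendrocyte markers, Elovl5 was at 8.16, 7.10 and 6.43 CPM with food, 6.18, 6.02 and 6.77 CPM after 1 day, and 6.20, 6.04 and 5.96 CPM after 1 week. On that scale 1 day replicate 3 reached into the ad libitum range and the 1 week libraries stayed below it. Per 1000 CPM of astrocyte markers it was at 15.6 to 18.3 CPM with food and 11.2 to 12.9 CPM over both fasted groups, which did not overlap the former. Scd2 per 1000 CPM of oligodendrocyte markers was at 216 ± 20.5 CPM (SD, n = 3), 219 ± 18.3 CPM and 203 ± 28.4 CPM, which overlapped. Per 1000 CPM of astrocyte markers Scd2 was at 492 to 521 CPM with food, 406 to 438 CPM after 1 day and 344 to 423 CPM after 1 week, with both fasted groups below the ad libitum range. Elovl6 per 1000 CPM of oligodendrocyte markers was at 5.82 to 6.46 CPM with food, 5.40 to 6.31 CPM after 1 day and 3.97 to 5.99 CPM after 1 week, so its groups overlapped on that scale. Against astrocyte markers Elovl6 was at 12.9 to 15.1, 10.6 to 12.2 and 7.93 to 11.1 CPM, and both fasted groups lay below the ad libitum one. In CPM, however, Elovl6 overlapped the ad libitum group after 1 day, through replicate 2. The astrocyte sum was highest in that library. Fasn against oligodendrocyte markers was at 41.9 ± 6.02, 41.1 ± 9.70 and 41.3 ± 3.45 CPM (SD, n = 3), which overlapped. Against astrocyte markers Fasn was at 92.9 to 105 CPM with food, 58.1 to 93.1 CPM after 1 day and 75.4 to 82.9 CPM after 1 week, and only the 1 week group lay apart from the ad libitum one. The part of cell makeup in the members' values was not tested beyond these ratios.

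Repeated fasts were set against a single one in the last comparison, and no member passed. Their median log2 fold change was -0.021, with 7 genes below 0 and 3 above. In either direction, 0 of 10 members had an unadjusted p below 0.05 in edgeR's test, against 1071 of all 20535 genes. As lower alone the share of all genes was 1.69%. Groups did not overlap for 0 of 10 members, against 7.79% of all genes. No gene of the table passed edgeR's test here (0% of 20535 genes), and DESeq2 called 3 genes, none of them a member. The 95% intervals ran from -0.56 (Elovl6) to 0.51 (Srebf1), which is 0.680 to 1.43 times the 1 day level.

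The other genes of the pathway were taken from 7 lists of 84 genes, of which 83 were measured. None of the 83 passed edgeR's test in either comparison with the ad libitum group, and 7 were lower and 2 higher at an unadjusted p below 0.05 after 1 day, where 4.90% of all genes were lower and 4.37% higher. After 1 week 6 were lower and 3 higher on that rule, where 4.90% of all genes were lower and 6.33% higher. The supply of acetyl-CoA, citrate and NADPH was the list with a median most like that of the 10 genes, at -0.20 after 1 day and -0.17 after 1 week over 9 genes. In it Me1, which makes NADPH, had log2 fold changes of -0.39 and -0.30 (edgeR adjusted p = 0.468 and 0.438), and Slc25a1, the mitochondrial citrate carrier, -0.36 and -0.37 (edgeR adjusted p = 0.558 and 0.510). Cs, citrate synthase, was at -0.20 and -0.17 (edgeR adjusted p = 0.533 and 0.529). Among 11 relatives and regulators of acetyl-CoA carboxylase the medians were 0.016 and 0.037, and Acacb, the second acetyl-CoA carboxylase, had the same sign as Acaca at 0.28 and 0.41 (edgeR adjusted p = 0.566 and 0.343). Mid1ip1, a protein that activates the carboxylase, was at -0.20 and -0.28, and Prkag2, a subunit of AMP-activated kinase, at 0.0070 and 0.23.

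The 14 genes of SREBP processing and lipogenic transcription factors had medians of -0.068 and -0.015. Mlxipl, the carbohydrate response factor, was at -0.69 and -0.41 (edgeR adjusted p = 0.485 and 0.587), from a level of only 3.76 ± 0.345 CPM (SD, n = 3) with food. Nr1h3, a liver X receptor, was at -0.53 and -0.027, and its partner Rxra at 0.020 and 0.25. Of 10 measured elongation enzymes outside the set, medians -0.076 and -0.165, Elovl7 had -0.36 and -0.72 (edgeR adjusted p = 0.580 and 0.239), Elovl1 -0.46 and -0.14, and the dehydratase Hacd2 0.19 and 0.27. Elovl3 was not among the rows analysed here. The 10 other desaturases and electron carriers had medians of 0.013 and -0.011. Scd3 was at 0.40 and 0.12, Scd4 at 0.16 and 0.57 from a level near 0.515 CPM, and Degs1, a dihydroceramide desaturase, at -0.16 and -0.19.

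Mitochondrial fatty acid synthesis, a separate system that supplies lipoic acid, had medians of -0.0086 and 0.0018 over 10 genes, with Oxsm at -0.26 and -0.44, Lipt2 at -0.54 and -0.34 and Ndufab1 at -0.47 and -0.29. Over 19 genes that activate fatty acids or pass them into lipids, the medians were -0.055 and -0.10. There Fa2h, which makes the hydroxylated fatty acids of myelin, was at 87.5, 89.1 and 105.7 CPM with food, 60.7, 34.5 and 50.9 CPM after 1 day, and 72.6, 53.3 and 67.6 CPM after 1 week. Both fasted groups lay below the ad libitum group, with log2 fold changes of -0.95 (SE 0.197, edgeR adjusted p = 0.182) and -0.54 (SE 0.196, edgeR adjusted p = 0.333). DESeq2 and voom called Fa2h lower after 1 day, with adjusted p of 0.00207 and 0.0439. Fabp7, a fatty acid carrier of astrocytes and radial glia, was at -0.54 and -1.17 (edgeR adjusted p = 0.617 and 0.305), and Dgat2, which makes triglyceride, at 0.18 and 0.53 (edgeR adjusted p = 0.741 and 0.344).

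**Figure D5:**
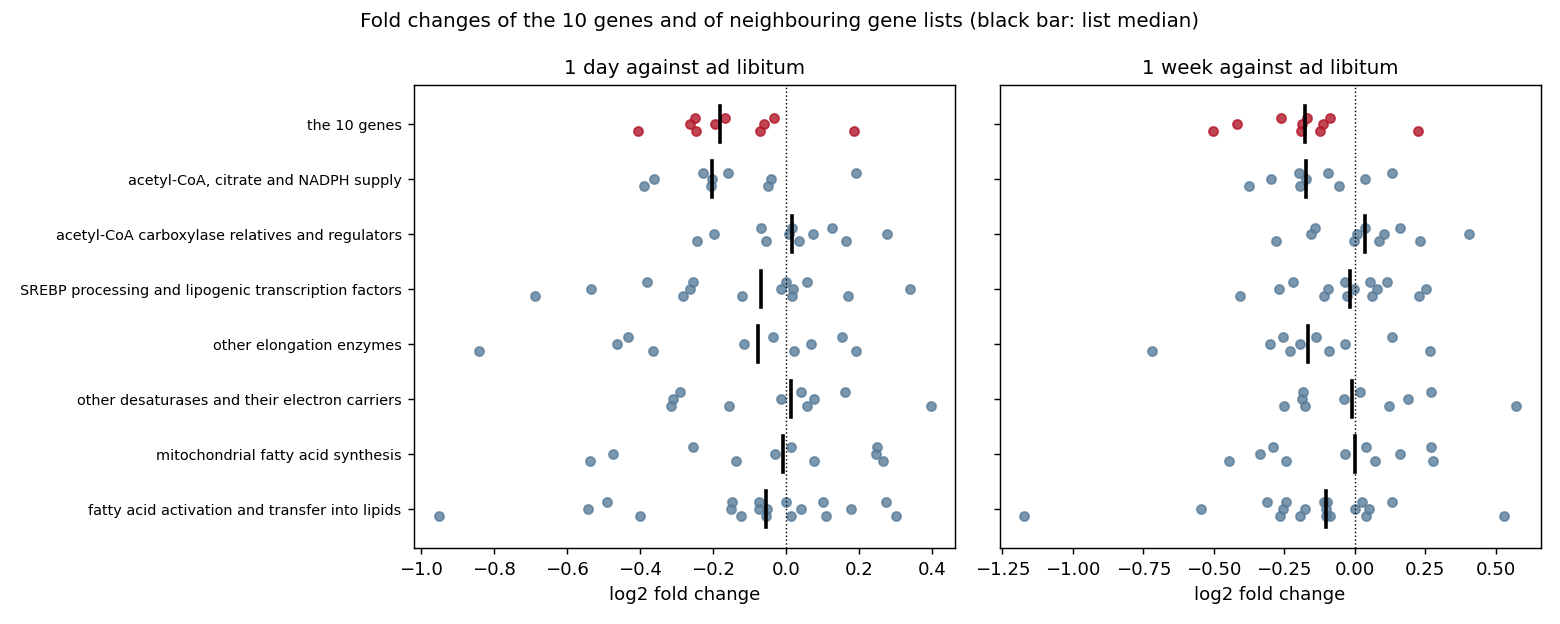
Log2 fold change (horizontal axis) of each measured gene, by list (vertical axis), after 1 day and 1 week against the ad libitum group, with black bars for list medians and red points for the 10 genes. The 10 genes have medians of -0.18 in each panel, the supply list -0.20 and -0.17, and the other 6 lists between -0.165 and 0.037.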

How the data were processed

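PolyA RNA from substantia nigra lysate was sequenced with a directional kit, per the labels' protocols. According to the submitters' processing notes, Salmon and DESeq2 1.40.2 were used, with mm39 (GRCm39) as the build. Salmon's version and annotation, and whether rows were filtered, is information not given in the sources used here. Values in the table the authors deposited are estimated counts, 1 row per gene, written as whole numbers and unscaled. Its lowest row mean is 9.89 counts, so rarer genes are not analysed here.

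Differences were tested in R 4.3.3 with edgeR 4.0.16: TMM scaling, filterByExpr (minimum count 10, minimum total 15, 56 rows removed), and a robust quasi-likelihood fit of all 9 libraries. F tests were two-sided, with Benjamini-Hochberg adjustment over 20535 genes and a threshold of 0.05. Standard errors come from the F statistics, and 95% intervals from these and the fit's degrees of freedom. Alternatives were DESeq2 1.42.0, limma 3.58.1 (voom with quality weights), other scaling and filters, a replicate block, and libraries left out. No pair of libraries of a group matched within sampling noise (lowest chi-square per gene 39.0). Transcript lengths and 31-base words came from GENCODE M21 (GRCm38), by gene identifier.

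The members and lists were chosen with earlier results of these data known. The text names all members and the 3 genes with the smallest p of each other list, plus Elovl3 and marker or target genes that touch a result. The 2 genes most like each member were taken from those with a mean log2 CPM of 0 or more, leaving out unnamed gene models.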

Additional observations from a re-analysis of the deposited data

How the results depend on the processing

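None of the 10 genes passed in any edgeR fit, whatever the scaling, the filter or the library left out. Of the 170 fold changes recomputed for each comparison with the ad libitum group, 2 after 1 day and 1 after 1 week changed sign, and 1 and 2 became calls. The calls were Elovl5 with DESeq2 in both comparisons (members called 1 and 1) and Elovl6 with voom after 1 week (members called 1). These sign changes lay near 0 and came from leaving out 1 library. After 1 day Fads1 moved from -0.032 to 0.013 without ad libitum replicate 2 (range -0.053 to 0.013) and Scd1 from -0.060 to 0.014 without ad libitum replicate 3 (range -0.16 to 0.014). After 1 week Scd1 moved from -0.11 to 0.023 without 1 week replicate 3 (range -0.22 to 0.023). On leaving out 1 library Acly ranged from -0.11 to -0.035 after 1 day and from -0.12 to -0.049 after 1 week. For 1 week against 1 day, 24 of 170 changed sign over all alternatives. With 1 library left out the ranges were -0.13 to 0.23 for Srebf1, -0.076 to 0.16 for Fasn, -0.030 to 0.13 for Acaca, -0.043 to 0.025 for Acly, -0.16 to 0.080 for Scd1, -0.13 to 0.028 for Scd2, -0.071 to 0.054 for Elovl5, -0.15 to 0.016 for Fads1 and -0.12 to 0.065 for Fads2. With voom, Srebf1, Fasn, Acaca, Acly and Elovl5 were at -0.032, -0.031, -0.017, 0.025 and 0.034, and with replicate 2 of both fasted groups left out at -0.084, -0.073, -0.023, 0.057 and 0.072. The count over all genes, 12, 63 and 0 in the 3 comparisons, was 187, 467 and 3 with DESeq2, 93 and 296 with voom after 1 day and 1 week, 26 and 155 on the 6 libraries compared, 50 after 1 day with both replicates 2 left out, and 0 to 22, 8 to 121 and 0 to 3 with 1 library left out. The cause was not tested. The replicate numbers of the labels did not pair the libraries in general: deviations of same-numbered libraries correlated at -0.198 to 0.437, and 3 of 9 pairs were over 0.1. A library correlated best with its own number in 4 of 18 cases. The value of 0.437 was that of the 1 day and 1 week libraries numbered 2, which also had the lowest quality weights. The cause of this shared deviation was not tested. With the replicate block 2 and 32 genes passed after 1 day and 1 week, no member among them. With RLE scaling all 30 group means of the members stayed within 1 SD.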

Other observations

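For each of the 10 genes, the 2 genes whose log2 CPM followed it most closely over the 9 libraries are given with Pearson's r, as a description, since the libraries share their makeup and depth and 13945 genes were compared. Srebf1 was followed most closely by Spry1 (r = 0.991) and G6pc3 (0.983), and Fasn by Zfp768 (0.983) and Srebf2 (0.979), the gene of the sister factor SREBP-2. Srebf2 was at 243.7, 261.0 and 236.2 CPM with food, 227.5, 154.8 and 226.9 CPM after 1 day, and 222.8, 198.4 and 193.8 CPM after 1 week, so it was lowest in 1 day replicate 2, as Fasn and Srebf1 were. Elovl5 was followed by Srpk3 (0.989) and Nfe2l3 (0.987), Elovl6 by Vti1a (0.984) and Ano4 (0.983), and Scd2 by Ddhd1 (0.966), a phospholipase, and Plxdc2 (0.947). For Acaca the genes were Ripk4 (0.976) and Fnip2 (0.967), for Acly Kdr (0.959) and Lat2 (0.952), for Scd1 Zfand2b (0.914) and Pou3f3 (0.899), for Fads1 Insm1 (0.958) and Tmem163 (0.947), and for Fads2 Slc36a2 (0.968) and Oprm1 (0.963).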
